A study of Mus musculus with 28 samples.

Results

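The 10 genes described here are imprinted genes of the mouse that act in growth: H19, Igf2, Igf2r, Dlk1, Meg3, Mest, Peg3, Plagl1, Grb10 and Ndn. They were taken by symbol from the deposited count table, and all 10 were found among its 54429 gene identifiers. The set was built around H19, which was chosen by the very negative value by which its response to low oxygen in chondrocyte cultures departed from its response in proliferating cells. That departure, the log2 change with low oxygen in chondrocyte cultures minus the log2 change in proliferating cells, was -8.28 for H19. The member nearest to H19 by the same measure was Mest at -4.44, followed by Peg3 at -1.34, Igf2r at -1.33 and Plagl1 at -1.29. Meg3 (-0.53), Grb10 (-0.43), Dlk1 (-0.19) and Ndn (0.29) lay nearer to 0, and Igf2 had too few counts for a value. Because these values led to the choice of H19, they stand as a description with no test. H19 was tested only between osteoblast and smooth muscle cultures and between the oxygen levels within each of those cultures, and its other values are given as levels.

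An imprinted gene is transcribed mainly from the maternal or mainly from the paternal chromosome, according to DNA methylation laid down in the germ line. Many imprinted genes of this kind are active in the embryo and decline after birth, and as a group they control how much tissues grow. H19 makes a long noncoding RNA from the maternal copy, while its neighbour Igf2 encodes insulin-like growth factor 2 and is read from the paternal copy. The RNA counts do not separate the parental copies, so they give the total level of each RNA and carry no information on whether its imprint was kept.

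The libraries came from O9-1, a line of mouse cranial neural crest cells, the embryonic cells that form much of the bone, cartilage and connective tissue of the face. The study asked how low oxygen bears on the differentiation of these cells. Cells were kept at 21% or 0.5% oxygen in each of 4 conditions, which gave 8 groups with 4 libraries each at 21% and 3 each at 0.5%, or 16 normoxic and 12 hypoxic libraries. Proliferating cells grew in medium conditioned by STO cells with 15% serum, 25 ng/ml bFGF and 5 ng/ml LIF. Osteoblast cultures had 10 days of medium with 10% serum, beta-glycerophosphate, 0.1 µM dexamethasone and 100 ng/ml BMP-2. Chondrocyte cultures had 3 days of osteoblast medium and then 7 days as micromass on matrigel with 5% serum, 0.1 µM dexamethasone, 10 ng/ml TGF-beta3, 50 ng/ml BMP-2 and insulin-transferrin-selenium. Smooth muscle cultures had 3 days of DMEM with 10% serum. O9-1 is a single line, and nothing in the labels says that replicates were separate cultures, so p-values measure the spread between these libraries, which may be technical.

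Libraries held between 19.87 and 64.69 times 1e+06 counts (median 26.795 times 1e+06). Levels are given in CPM, counts divided by library size and scaled to 1e+06 after normalising by the trimmed mean of M values (TMM) over all 28 libraries, and log2 changes and adjusted p-values come from edgeR's quasi-likelihood test with Benjamini-Hochberg adjustment over all genes tested (threshold 0.05). In the 0.5% smooth muscle libraries, mitochondrial ribosomal RNA took 11.6% to 13.3% of counts against at most 0.0889% in the other groups. Their scaling factors were 0.505 to 0.533 against 0.901 to 1.29 elsewhere. Smooth muscle markers summed to 3600 to 4060 CPM in 21% smooth muscle libraries and to 95.1 to 119 CPM at 0.5% oxygen, where 3 of the 8 markers reached 1 CPM and Actg2 had no count. That is close to the 94.4 to 103 CPM of the 21% proliferating libraries and below the 192 to 195 CPM of the 0.5% proliferating libraries, so the label smooth muscle was not borne out by these markers at 0.5% oxygen. Blood cell markers summed to 33 to 36.5 CPM there, with 1 of 4 markers above 1 CPM and Lyz2 and Hbb-bs at 0, against at most 5.41 CPM in any other group. Chondrocyte markers summed to 3190 to 9650 CPM in chondrocyte libraries at 21% oxygen and to 907 to 1380 CPM at 0.5%. In osteoblast libraries they summed to 190 to 1540 CPM at 21%, the highest from replicate 4, and to 607 to 644 CPM at 0.5%. Osteoblast markers summed to 6710 to 10500 CPM in osteoblast libraries at 21% and to 13700 to 15600 CPM at 0.5%, below the 38600 to 51700 CPM of the chondrocyte libraries. Adipocyte markers in the osteoblast libraries summed to 7.77 to 11.6 CPM at 21% and 54.7 to 59.6 CPM at 0.5% oxygen, with 2 of 6 markers at 1 CPM or more and Adipoq and Lep without a count at both, and smooth muscle markers there to 3660 to 5210 CPM at 21% and 2220 to 2500 CPM at 0.5%. Of 8 neural crest markers 5 reached 1 CPM in every group, while Sox10 and Foxd3 had no count in nearly all groups. The neural crest sum was 343 to 403 CPM in smooth muscle libraries at 21% oxygen and 597 to 665 CPM at 0.5%. In osteoblast libraries it was 303 to 463 CPM at 21% and 558 to 641 CPM at 0.5%. Hypoxia response genes summed to 2670 to 4540 CPM in hypoxic libraries and to 236 to 1290 CPM in normoxic ones, with no overlap. The part of these shifts in the results below was not tested, and in bulk RNA fewer cells of a type cannot be told apart from less RNA per cell.

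Of the 21% osteoblast libraries, replicate 4 stood apart from the other 3. In that library 3.22% of 16540 genes lay more than 2-fold outside the range of the other replicates, against at most 0.0121% for replicates 1 to 3. Its chondrocyte markers summed to 1544 CPM, against 190 to 207 CPM in replicates 1 to 3, its osteoblast markers to 10510 against 6713 to 6729 CPM, and its hypoxia response genes to 528.5 against 633 to 655 CPM. Where leaving it out changed the call of a member, the value without it is given too.

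H19 and Mest each host a microRNA gene, and the mature sequences from RefSeq (GRCm38.p6) are shown because they lie in the host genes with the large oxygen differences described below. Capitals mark the seed, bases 2 to 8, which pairs with target messages. The first pair lies within H19 (chr7:142577112-142577133 and chr7:142577078-142577099, minus strand) and the second pair within Mest (chr6:30741314-30741336 and chr6:30741354-30741375, plus strand).
miR-675-5p: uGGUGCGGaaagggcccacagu
miR-675-3p: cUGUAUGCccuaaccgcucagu
miR-335-5p: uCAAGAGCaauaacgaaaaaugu
miR-335-3p: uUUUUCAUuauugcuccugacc
No seed is shared among these 4. The libraries measured polyadenylated RNA, and the gene entry Mir675 had 0 counts in all groups, so the values below concern the host transcripts and not the mature microRNAs.

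Promoter windows, from 250 bases before to 50 bases after a RefSeq start, were found for 9 of the 10 genes, in 16 windows. They were searched on both strands for ACGTG and GCGTG, the core to which hypoxia-inducible factors can bind. The 2 motifs can share a base where one follows the other, and CACGTG holds ACGTG on both strands. Of the 16 windows 7 held a motif, spread over 7 genes, and 43.8% of all 32851 promoter windows of this length held one. The windows of 4 genes with large or repeated oxygen differences are shown, with the motif in capitals where present. Dlk1 (chr12:109452573-109452872, plus strand) was higher at low oxygen in all 4 conditions by TMM, although its smooth muscle rise depended on the scaling. Mest (chr6:30737800-30738099, plus strand), Peg3 (chr7:6730370-6730669, minus strand) and Plagl1 (chr10:13090582-13090881, plus strand) were lower in smooth muscle and osteoblast cultures.
Dlk1: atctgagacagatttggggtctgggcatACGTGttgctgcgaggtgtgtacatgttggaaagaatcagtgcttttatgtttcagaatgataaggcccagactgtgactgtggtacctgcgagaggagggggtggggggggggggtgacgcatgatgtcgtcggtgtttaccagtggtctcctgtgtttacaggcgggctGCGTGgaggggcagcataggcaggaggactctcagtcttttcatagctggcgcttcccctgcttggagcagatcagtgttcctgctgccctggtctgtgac
Mest: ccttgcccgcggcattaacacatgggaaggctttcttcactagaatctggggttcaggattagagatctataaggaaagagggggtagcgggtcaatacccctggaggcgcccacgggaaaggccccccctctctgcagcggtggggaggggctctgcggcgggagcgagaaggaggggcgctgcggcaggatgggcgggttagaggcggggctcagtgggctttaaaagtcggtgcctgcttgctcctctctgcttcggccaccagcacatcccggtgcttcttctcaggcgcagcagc
Peg3: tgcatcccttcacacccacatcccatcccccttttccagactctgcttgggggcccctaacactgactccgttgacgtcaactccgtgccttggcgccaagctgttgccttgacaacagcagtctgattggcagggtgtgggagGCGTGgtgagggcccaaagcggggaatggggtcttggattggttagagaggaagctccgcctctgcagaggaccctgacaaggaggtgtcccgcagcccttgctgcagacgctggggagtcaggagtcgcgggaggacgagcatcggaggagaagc
Plagl1: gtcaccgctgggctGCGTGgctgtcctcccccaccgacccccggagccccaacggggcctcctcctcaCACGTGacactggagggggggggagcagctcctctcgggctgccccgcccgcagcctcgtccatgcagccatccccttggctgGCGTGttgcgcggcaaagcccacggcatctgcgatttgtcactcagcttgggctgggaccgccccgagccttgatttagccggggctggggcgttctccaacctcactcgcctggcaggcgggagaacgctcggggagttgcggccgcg
The Mest window held no such motif, the Peg3 window held 1, the Dlk1 window 2 and the Plagl1 window 4 positions. A match of letters is a description and not evidence of binding.

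H19 lies at chr7:142575529-142578143 on the minus strand of GRCm38, where GENCODE annotates a long intergenic noncoding RNA (ENSMUSG00000000031). In chondrocyte cultures at 21% oxygen its 4 libraries held 671, 755, 867 and 805 CPM (mean 775 ± 82.8, SD, n = 4), and at 0.5% oxygen 35.2, 19.6 and 24.3 CPM (mean 26.4 ± 8.01, SD, n = 3). The groups were far apart, with a 29.5-fold lower level at low oxygen. Proliferating cells showed the opposite order. There the levels were 3.07, 2.93, 3.35 and 2.21 CPM at 21% oxygen (mean 2.89 ± 0.487, n = 4) and 28.8, 29.5 and 31.0 CPM at 0.5% (mean 29.8 ± 1.13, n = 3), a 10.7-fold higher level at low oxygen with no overlap. Both differences entered the choice of H19 and have no test here.

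In smooth muscle cultures H19 stood at 488, 484, 464 and 401 CPM at 21% oxygen (mean 460 ± 40.1, n = 4) and at 29.7, 35.3 and 31.9 CPM at 0.5% (mean 32.3 ± 2.83, n = 3). It fell 13.6-fold with low oxygen (log2 change -3.77 ± 0.10, SE, adjusted p = 1.05e-13), and every hypoxic library lay below every normoxic one. In osteoblast cultures the 21% libraries held 28.4, 27.1, 29.1 and 315 CPM, and the 0.5% libraries 369, 308 and 356 CPM (mean 344 ± 32.3, n = 3). Replicate 4 at 21% oxygen thus lay within the hypoxic range while replicates 1 to 3 lay far below it. With all libraries the log2 change was 1.77 ± 1.03 (SE) and did not pass the test (adjusted p = 0.194). Without replicate 4 it was 3.61 (adjusted p = 2.21e-12). With all libraries it passed under limma-voom (2.72, adjusted p = 0.0257), 1 fit of all 8 groups (1.78, adjusted p = 0.0122) and the replicate block (3.61, adjusted p = 6.45e-16), in which replicate 4 carries no weight.

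**Figure D1:**
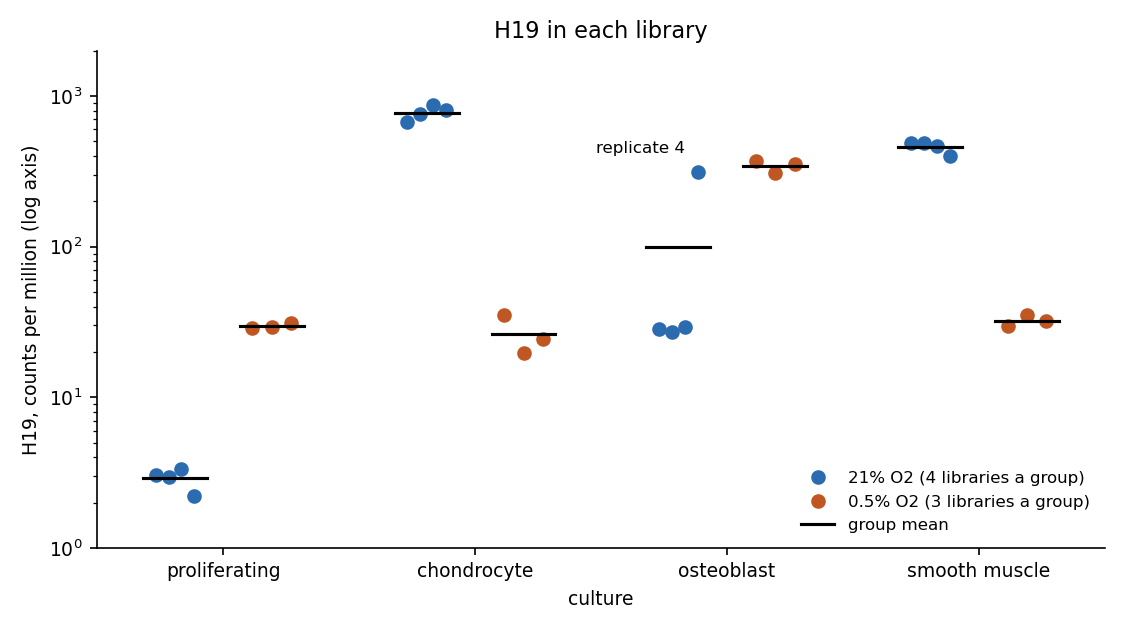
H19 level in each of the 28 libraries (CPM, log axis) by culture condition and oxygen level; points are libraries and bars group means. Normoxic chondrocyte (671 to 867 CPM) and smooth muscle (401 to 488 CPM) libraries and hypoxic osteoblast libraries (308 to 369 CPM) are high, and of the 21% osteoblast libraries only replicate 4, at 315 CPM, is near them.

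The response of H19 to oxygen differed between smooth muscle and osteoblast cultures, a contrast that played no part in its choice. The log2 change in osteoblast minus that in smooth muscle cultures was 5.61 ± 1.21 (SE, adjusted p = 0.00203), and 7.44 (adjusted p = 9.26e-20) without replicate 4 of the 21% osteoblast group. At 0.5% oxygen H19 was 10.2-fold higher in osteoblast than in smooth muscle cultures (log2 difference 3.36 ± 0.12, adjusted p = 2.91e-11). At 21% oxygen the order was the other way round (-2.20 ± 0.88), a difference that did not pass in edgeR with all libraries (adjusted p = 0.0722). It passed without replicate 4 (-4.04, adjusted p = 1.11e-19), and with all libraries it passed under DESeq2 (adjusted p = 0.0285), limma-voom (adjusted p = 0.00707), 1 fit of all 8 groups (adjusted p = 0.00247) and the replicate block (adjusted p = 0.0107). By group mean, the order of H19 levels ran from normoxic chondrocyte through normoxic smooth muscle, hypoxic osteoblast, normoxic osteoblast, hypoxic smooth muscle, hypoxic proliferating and hypoxic chondrocyte to normoxic proliferating. Neighbours overlapped from hypoxic osteoblast down to hypoxic chondrocyte. Without replicate 4 the normoxic osteoblast libraries (27.1 to 29.1 CPM) lay below the means of hypoxic smooth muscle (32.3 CPM) and hypoxic proliferating libraries (29.8 CPM) and above that of hypoxic chondrocyte libraries (26.4 CPM). Per kilobase of exon, H19 was the most abundant of the 10 in normoxic chondrocyte (315 ± 33.7 CPM per kb), normoxic smooth muscle (187 ± 16.3) and hypoxic osteoblast libraries (140 ± 13.1), whereas Grb10 led in the other 5 groups.

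Igf2 (chr7:142650766-142666816, minus strand), 72.6 kb from H19 on chromosome 7, encodes the growth factor that signals through the IGF1 and insulin receptors. It was nearly silent in these cells. No count was found in the 21% or 0.5% proliferating or the 21% chondrocyte libraries, and 1 count in all in the 0.5% chondrocyte libraries. Igf2 counts came almost wholly from osteoblast and smooth muscle cultures at 21% oxygen. The normoxic osteoblast libraries held 20, 19, 19 and 69 counts (0.699, 0.749, 0.644 and 2.21 CPM) and the hypoxic ones 3, 2 and 3 counts. The pooled Igf2 level there was 11.5 times as high at 21% as at 0.5% oxygen (95% counting interval 5.68 to 27.3), and 7.24 times as high without replicate 4 (3.44 to 17.6). The normoxic smooth muscle libraries held 36, 38, 25 and 54 counts (1.10, 1.02, 0.725 and 1.58 CPM) and the hypoxic ones 2, 0 and 0. The pooled ratio there was 18.8 (5.13 to 157). Igf2 passed the count filter in these comparisons only through its normoxic libraries, so its oxygen differences are given as a description with no test. Against proliferating cells at 21% oxygen, with a floor of 3 counts over the group, Igf2 was at least 62.7-fold higher in osteoblast (at least 39.4-fold without replicate 4, which held 69 of the 127 counts) and at least 62.5-fold higher in smooth muscle cultures. Igf2os runs through 7124 bases of Igf2 on the opposite strand and held 6 counts in the normoxic osteoblast and 24 in the normoxic smooth muscle group. Since the strand setting of the counting is not given in the sources used here, reads of the 2 genes cannot be told apart.

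H19 and Igf2 are read in many embryonic tissues from shared enhancers. In these libraries they coincided in normoxic smooth muscle, where both were high against proliferating cells, and parted in normoxic chondrocyte libraries, where H19 was at its highest and Igf2 had 0 counts. In hypoxic osteoblast libraries H19 was at 308 to 369 CPM while Igf2 was at 0.0687 to 0.116 CPM. Of the next genes along the chromosome, Cdkn1c, an inhibitor of the cell cycle and itself imprinted, rose with low oxygen in proliferating cells (log2 change 0.55 ± 0.17, SE, adjusted p = 0.0106) and fell in osteoblast cultures (-0.50 ± 0.14, adjusted p = 0.0119).

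Igf2r (chr17:12682406-12769664, minus strand) encodes the receptor that takes up IGF2 and sends it to the lysosome. In proliferating cells it held 145.5, 148.4, 144.1 and 153.8 CPM at 21% oxygen and 201.3, 203.9 and 214.3 CPM at 0.5%, a 1.45-fold rise (log2 change 0.54 ± 0.05, adjusted p = 2.69e-07). It fell in chondrocyte cultures from 327, 429, 374 and 365 CPM to 207, 229 and 210 CPM (-0.80 ± 0.09, adjusted p = 8.54e-05). The largest Igf2r fall was in smooth muscle, from 312, 322, 285 and 295 CPM to 127, 89.0 and 110 CPM (-1.42 ± 0.11, adjusted p = 1.08e-08). In none of these 3 conditions did the oxygen groups overlap. In osteoblast cultures the libraries overlapped (160 to 299 CPM at 21%, 199 to 275 CPM at 0.5%) and the change did not pass the test (-0.06 ± 0.21, adjusted p = 0.822, and -0.24, adjusted p = 0.0508, without replicate 4). With the replicate block it passed (-0.25, adjusted p = 0.0222). Airn, the noncoding RNA that silences the paternal Igf2r copy, overlaps 28354 bases of the gene on the other strand, so Igf2r counts may hold Airn reads.

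Grb10 (chr11:11930508-12038683, minus strand) encodes an adaptor that dampens signalling from the insulin and IGF1 receptors. Per kilobase it was among the 2 most abundant members in every group. Its libraries held 239 to 270 CPM in proliferating cells at 21% oxygen and 311 to 332 CPM at 0.5%, a rise of 0.37 ± 0.05 on the log2 scale (adjusted p = 1.66e-05). Smooth muscle libraries held 351, 362, 362 and 289 CPM at 21% and 119, 133 and 139 CPM at 0.5% (-1.33 ± 0.10, adjusted p = 7.58e-09). There every hypoxic library lay below every normoxic one. Neither chondrocyte (470 to 572 against 456 to 575 CPM, adjusted p = 0.663) nor osteoblast libraries (509 to 824 against 461 to 490 CPM, adjusted p = 0.155) gave a change that passed. In osteoblast cultures the Grb10 change was -0.32, -0.11 (adjusted p = 0.0781) without replicate 4, and it passed with all 8 groups in 1 fit (adjusted p = 0.0302).

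The other parts of the IGF pathway were read from a list of 8 genes: Igf1, the receptors Igf1r and Insr, the adaptors Irs1 and Irs2, and the Igf2 mRNA-binding proteins Igf2bp1, Igf2bp2 and Igf2bp3. With low oxygen, 4 of 7 tested rose and 2 fell in proliferating cells (list median log2 change 0.37, all genes 0.01), where 65.4% of all genes passed. Insr (0.88) and Igf1r (0.75) rose there, and Igf2bp3 fell (-0.63). In chondrocyte cultures 1 of 8 rose, Igf1r (0.45), and 2 fell, among them Irs1 (-0.94), with a median of 0.04 (all genes -0.01), where 22.2% of all genes passed. In osteoblast cultures 3 of 8 rose and 1 fell (median 0.34, all genes -0.03), where 54.3% of all genes passed, and without replicate 4 it was 4 and 1 (median 0.16), where 65.6% did. Igf2bp2 (1.00) and Irs2 (0.66) were the largest rises and Igf1 the fall (-1.84 ± 0.17, SE, adjusted p = 2.61e-05). In smooth muscle, leaving out Igf1, 6 of 7 fell and 1 rose (median -0.79, all genes -0.12), where 75.6% of all genes passed. By library size alone 6 of the 7 fell (median -2.16, all genes -1.49), where 12833 of 14914 genes passed and 15.6% of those were higher. Igf1, the other IGF ligand, reached the count filter there only through its normoxic libraries. It went from 1814 counts over the normoxic smooth muscle group to 17 over the hypoxic group, a pooled ratio of 26.3 (16.4 to 45.2). Igf2bp3 also fell there (-1.92), and Igf2bp1, the single gene to rise (1.17), had a log2 change of -0.20 when libraries were scaled by their size alone.

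The second imprinted locus of the set is on chromosome 12, where Dlk1 (chr12:109452823-109463336, plus strand) lies 77.7 kb from Meg3 (chr12:109541001-109571726, plus strand). Dlk1 encodes a membrane protein related to Notch ligands that holds progenitor cells back from differentiating and is read from the paternal copy. Meg3 makes a long noncoding RNA from the maternal copy. Dlk1 was higher at 0.5% oxygen in all 4 conditions with TMM scaling, and its oxygen groups did not overlap in any of them. In proliferating cells it went from 12.3, 11.9, 10.5 and 4.69 CPM to 29.2, 27.0 and 25.4 CPM, a rise of 1.5 ± 0.28 on the log2 scale (adjusted p = 0.00222). In chondrocyte cultures, where it was lowest, it went from 2.04, 2.10, 2.81 and 1.75 CPM to 4.32, 5.12 and 6.77 CPM (1.31 ± 0.23, adjusted p = 0.00174). In smooth muscle it went from 20.6, 17.8, 17.6 and 14.5 CPM to 51.9, 54.8 and 43.5 CPM (1.57 ± 0.13, adjusted p = 2.86e-08). The smooth muscle rise depended on the scaling: by library size alone it was 0.20 (adjusted p = 0.17), while all genes tested had a median of -1.49. Osteoblast libraries held 10.7, 9.31, 11.5 and 38.9 CPM at 21% oxygen and 45.5, 49.8 and 53.8 CPM at 0.5% (1.49 ± 0.51, adjusted p = 0.0424). Leaving out any of the 6 libraries other than replicate 4 at 21% took that Dlk1 call away (adjusted p = 0.0643 to 0.0919), and leaving out replicate 4 gave 2.24 (adjusted p = 1.26e-09). The call was also lost by library size alone (adjusted p = 0.0634) and without a filter (adjusted p = 0.128).

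Meg3 rose with low oxygen in proliferating cells and did not pass the test in the other 3 conditions. In proliferating cells it went from 24.5, 23.4, 21.3 and 21.2 CPM to 36.6, 37.0 and 37.1 CPM (0.76 ± 0.07, adjusted p = 3.45e-07). In chondrocyte cultures the groups overlapped, at 48.5, 45.1, 40.1 and 32.5 CPM against 53.3, 53.1 and 39.2 CPM (0.21 ± 0.15, adjusted p = 0.36). Osteoblast libraries were lower at low oxygen, with 36.7, 37.7, 36.8 and 80.0 CPM against 24.2, 28.8 and 30.8 CPM. That Meg3 difference missed the threshold with all libraries (-0.78 ± 0.30, adjusted p = 0.0619) and passed without replicate 4 (-0.41, adjusted p = 0.00206). It also passed by library size alone (adjusted p = 0.0346), under DESeq2 (adjusted p = 0.0117), with all 8 groups in 1 fit (adjusted p = 0.0194) and with the replicate block (adjusted p = 0.000969). In smooth muscle the hypoxic libraries were widely spread, at 117, 56.1 and 142 CPM against 78.0, 88.5, 60.6 and 60.3 CPM (0.61 ± 0.31, adjusted p = 0.109), and without hypoxic replicate 2 the change was 0.89 (adjusted p = 0.000155). Scaled by library size alone it was -0.75. Per kilobase of exon, the log2 ratio of Dlk1 to Meg3 went from 0.39 ± 0.59 (SD, n = 4) to 1.23 ± 0.11 (n = 3) in proliferating cells and from -2.59 ± 0.32 to -1.5 ± 0.57 in chondrocyte cultures. It went from 0.05 ± 0.42 to 2.51 ± 0.07 in osteoblast and from -0.34 ± 0.22 to 0.70 ± 0.85 in smooth muscle cultures. The mean ratio was higher at low oxygen in each of the 4 conditions.

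Other RNAs of the chromosome 12 locus differed between the conditions. Rian and Mirg are noncoding RNAs of the maternal copy downstream of Meg3. Rian rose with low oxygen in proliferating (log2 change 1.02 ± 0.07, SE, adjusted p = 1.21e-08) and chondrocyte cultures (0.91 ± 0.07, adjusted p = 7.67e-06) and fell in smooth muscle (-2.08 ± 0.10, adjusted p = 7.08e-11). Mirg rose in proliferating cells (1.5 ± 0.19), and its difference in chondrocyte cultures did not pass (0.78 ± 0.28, adjusted p = 0.0645). In smooth muscle its log2 change was -1.94 ± 0.40, a description with no test because only the normoxic libraries carried it past the count filter. In osteoblast cultures neither passed the test (-0.61 ± 0.42 and -0.71 ± 0.50). Rtl1, a retrotransposon-derived gene of the paternal copy between Dlk1 and Dio3, had 94 counts over the hypoxic osteoblast libraries and 6 over the normoxic ones, a ratio of 21.6 (9.54 to 60.2). Dio3, which encodes the deiodinase that inactivates thyroid hormone, had 79 counts over the normoxic smooth muscle group and 0 over the hypoxic group, at least 6.49-fold lower.

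**Figure D2:**
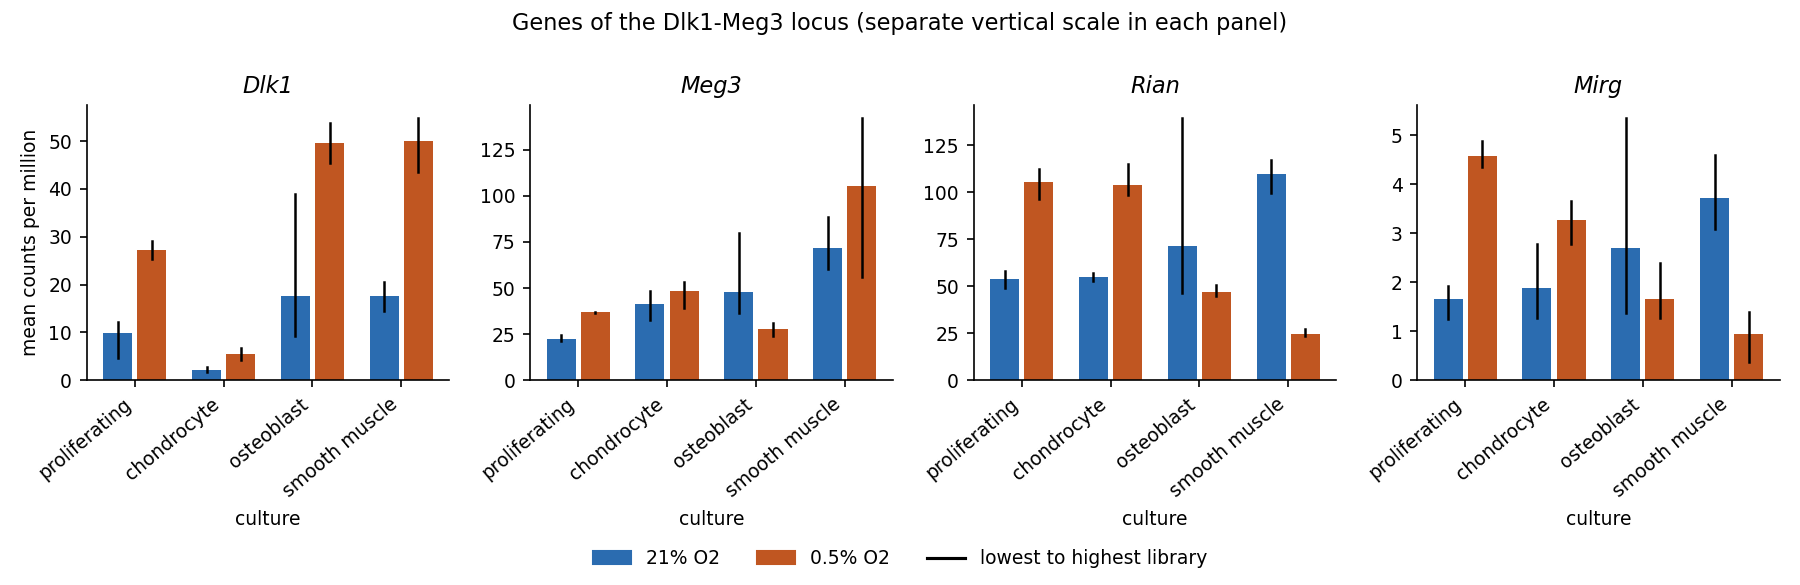
Mean level (CPM, linear axis from 0, separate scale in each panel) of Dlk1, Meg3, Rian and Mirg by culture condition and oxygen level (blue 21%, orange 0.5%), with black lines from the lowest to the highest library. Dlk1 bars are taller at 0.5% oxygen in each condition, whereas Rian and Mirg bars are taller at 0.5% in proliferating and chondrocyte cultures and shorter in smooth muscle. The Mirg difference in chondrocyte cultures did not pass the test.

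Mest (chr6:30723547-30748465, plus strand), a paternally expressed gene of the alpha/beta hydrolase fold that marks mesodermal tissue in the embryo, had the largest oxygen difference in log2 change of the 10 genes, in smooth muscle. Chondrocyte libraries held 48.9, 92.8, 104 and 104 CPM at 21% oxygen and 2.13, 3.86 and 2.04 CPM at 0.5%, a 33.2-fold fall (log2 change -5.05 ± 0.40, adjusted p = 0.000343). Smooth muscle libraries held 24.2, 28.7, 29.5 and 35.5 CPM at 21% and 0, 0.698 and 0.463 CPM at 0.5%. The hypoxic smooth muscle group had 12 Mest counts in all against 4091, a pooled ratio of 84 (95% counting interval 48 to 163) and a log2 change of -6.30 ± 0.37. It reached the count filter there only through its normoxic libraries, so this difference too is a description with no test. That change ran from -7.08 without hypoxic smooth muscle replicate 2 to -5.62 without replicate 1. In osteoblast cultures Mest fell from 161, 171, 167 and 326 CPM to 95.4, 71.2 and 60.3 CPM (-1.45 ± 0.30, adjusted p = 0.00428, and -1.14 without replicate 4). In proliferating cells it was near 1 CPM at both oxygen levels and did not pass (-0.59 ± 0.33, adjusted p = 0.134). Copg2, the neighbour that overlaps the Mest locus and is imprinted in some tissues, had log2 changes of 0.57, 0.25, 0.06 and 0.24 in proliferating, chondrocyte, osteoblast and smooth muscle cultures. Its rises in chondrocyte and smooth muscle cultures turned to 0.17, which did not pass, and to -1.13 when libraries were scaled by size alone.

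Peg3 (chr7:6703892-6730431, minus strand) encodes a paternally expressed zinc-finger protein with roles in growth and maternal care. Smooth muscle libraries held 85.6, 89.2, 82.1 and 70.6 CPM at 21% oxygen, the highest of any group, and 2.25, 1.60 and 2.69 CPM at 0.5%, the lowest of any group. It fell 35.7-fold (log2 change -5.16 ± 0.16, adjusted p = 4.92e-13). In osteoblast cultures it fell from 33.6, 30.5, 32 and 30.9 CPM to 9.56, 8.08 and 6.13 CPM (-2.01 ± 0.15, adjusted p = 6.32e-06). It was the single member for which replicate 4 lay among the other 21% osteoblast libraries. In proliferating cells Peg3 rose from 9.25, 9.15, 10.2 and 8.86 CPM to 17.0, 16.1 and 17.6 CPM (0.91 ± 0.09, adjusted p = 1e-06). Chondrocyte groups overlapped (5.96, 7.04, 7.33 and 6.11 against 6.64, 3.86 and 4.11 CPM, adjusted p = 0.14), and without hypoxic replicate 1 Peg3 passed as lower (-0.73, adjusted p = 0.0175).

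Plagl1 (chr10:13060504-13131694, plus strand) encodes a zinc-finger transcription factor that restrains proliferation and is known to regulate other imprinted genes. Its smooth muscle libraries held 126, 134, 121 and 140 CPM at 21% oxygen and 20.9, 18.8 and 16.6 CPM at 0.5%, a 6.64-fold fall (-2.73 ± 0.11, adjusted p = 4.95e-12). Osteoblast libraries held 128, 135, 134 and 78.8 CPM against 43.1, 34.0 and 25.4 CPM (-1.80 ± 0.23, adjusted p = 0.000326). In both cultures every hypoxic library lay below every normoxic one. Chondrocyte libraries also did not overlap, at 95, 121, 111 and 60.9 CPM against 41.7, 59.1 and 59.2 CPM. That Plagl1 difference missed the threshold (-0.87 ± 0.26, adjusted p = 0.0554) and passed without the lowest 21% library, replicate 4 (-1.04, adjusted p = 0.00193). With all libraries it passed by library size alone (adjusted p = 0.0396), under DESeq2 (adjusted p = 0.0123), with all 8 groups in 1 fit (adjusted p = 0.0038) and with the replicate block (adjusted p = 0.000165). In proliferating cells Plagl1 rose from 12, 11.9, 10.5 and 13.6 CPM to 16.7, 16.4 and 13.6 CPM (0.43 ± 0.11, adjusted p = 0.00349), with the highest 21% and the lowest 0.5% library at the same printed level. That Plagl1 call was lost with all 8 groups in 1 fit (0.38, adjusted p = 0.153).

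Ndn (chr7:62346569-62350262, plus strand) encodes necdin, a growth suppressor of the region linked to Prader-Willi syndrome, and was low throughout, at 2.93 to 13.7 CPM over all libraries. It fell in smooth muscle from 12, 9.96, 9.55 and 11.9 CPM to 2.93, 3.89 and 3.89 CPM (-1.55 ± 0.20, adjusted p = 6.18e-06). In proliferating cells it was higher at low oxygen (0.50 ± 0.16, adjusted p = 0.0145) with overlapping groups, and the call was lost without hypoxic replicate 1 (adjusted p = 0.0765) or 2 (adjusted p = 0.0777) and with all 8 groups in 1 fit (adjusted p = 0.0545). In chondrocyte cultures it was higher too (0.77 ± 0.22, adjusted p = 0.0248), and that call was lost without normoxic replicate 2 (adjusted p = 0.0701) or hypoxic replicate 2 (adjusted p = 0.0721) or 3 (adjusted p = 0.128) and with the replicate block (adjusted p = 0.0697). Osteoblast libraries overlapped (7.37 to 11.2 against 7.94 to 8.56 CPM, adjusted p = 0.624).

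**Figure D3:**
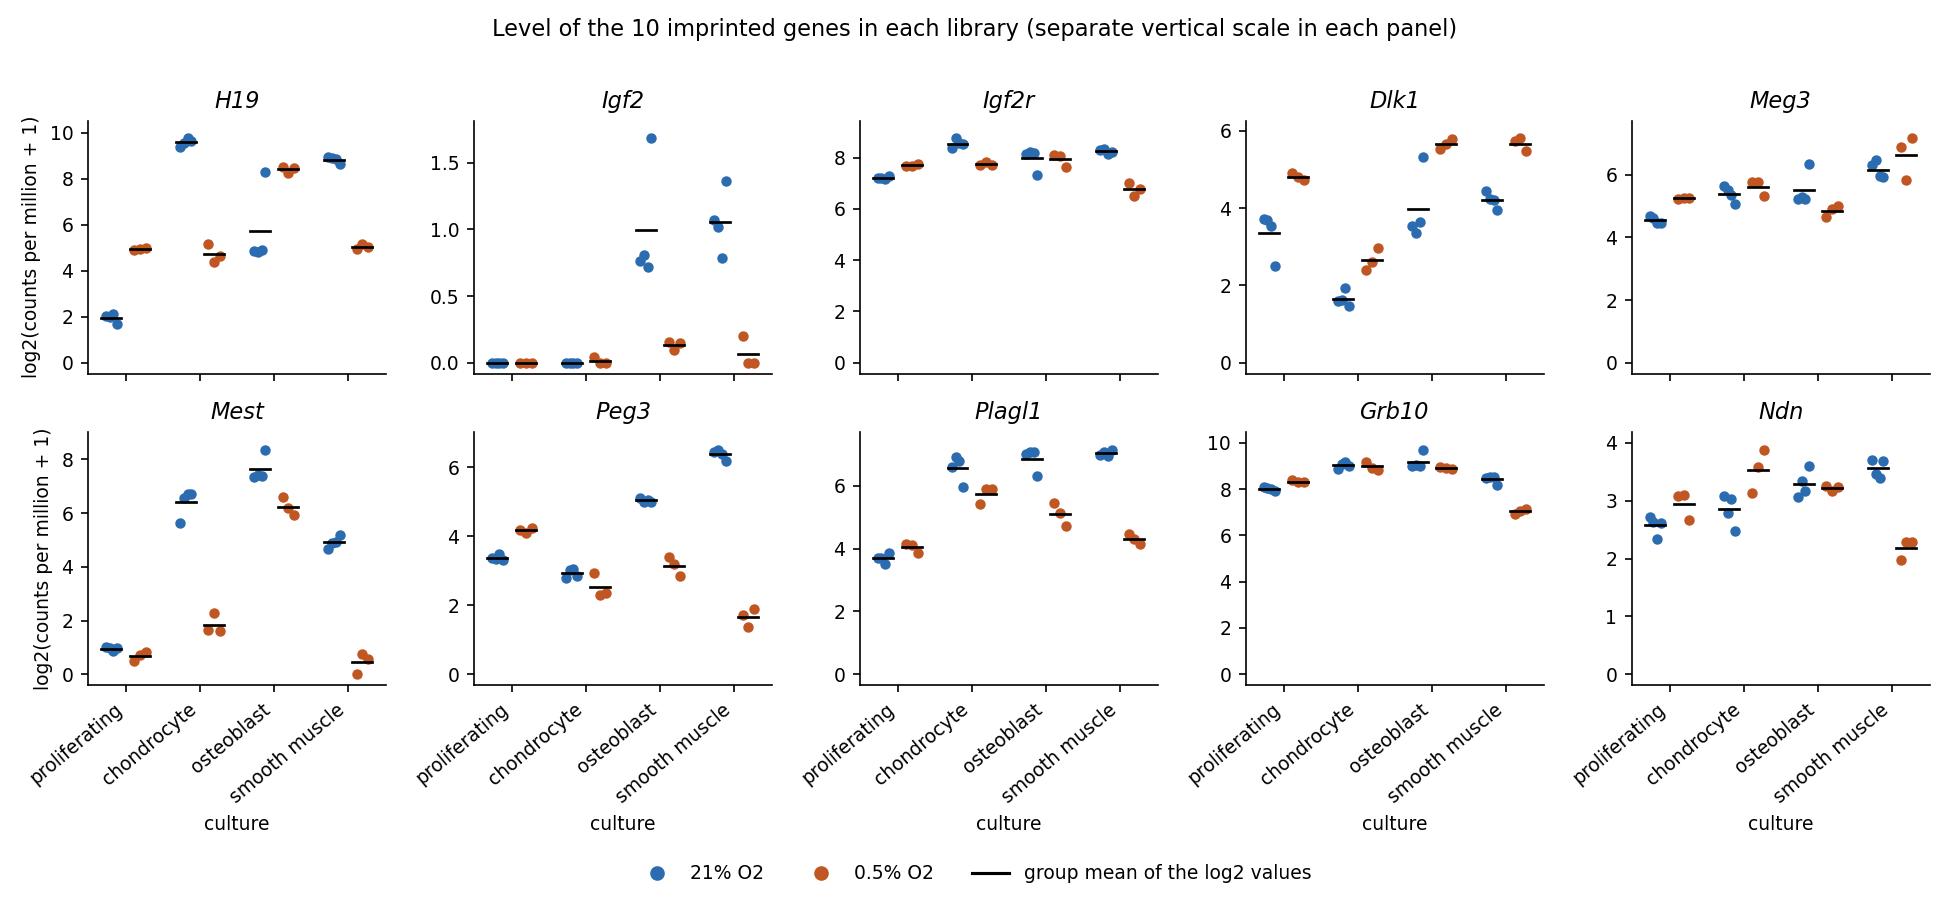
Level of each of the 10 genes in each of the 28 libraries as log2(CPM + 1), by condition and oxygen level (blue 21%, orange 0.5%), with points for libraries, bars for the mean of the log2 values and a separate scale in each panel. In smooth muscle libraries Dlk1 and Meg3 are the members not lower at 0.5% oxygen, while Mest and Peg3 there go from 24.2 to 35.5 and 70.6 to 89.2 CPM down to at most 0.698 and 2.69 CPM.

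Counted together, the 10 genes moved mostly up with low oxygen in proliferating cells and mostly down in smooth muscle. In proliferating cells 7 of the 8 tested members rose and Mest did not pass, where 33.1% of all genes tested rose, 32.3% fell and 65.4% passed in either direction. The median over the members that passed the count filter and could be tested was 0.52, against 0.01 over all genes. In chondrocyte cultures 2 of 8 rose (Dlk1 and Ndn) and 2 fell (Igf2r and Mest), against 10.4% and 11.8% of all genes and 22.2% in either direction, with medians of -0.26 and -0.01. From here on the counts leave out a member in any comparison of 2 groups in which only 1 of them carried it past the count filter, a choice made after seeing the data. In osteoblast cultures, without Igf2, 1 of 9 rose (Dlk1) and 3 fell (Mest, Peg3 and Plagl1), against 27.0% and 27.3%, so that the 4 of 9 called was near the 54.3% of all genes. Without replicate 4 of the 21% group it was 6 of 9, against 65.6% of all genes. In smooth muscle, without Igf2 and Mest, 1 of 8 rose (Dlk1) and 6 fell, against 35.4% and 40.2% of all genes and 75.6% in either direction, with medians of -1.48 and -0.12. By library size alone, 15.6% of the called genes in smooth muscle were higher against 46.8% by TMM, and H19 (-5.14), Peg3 (-6.52) and Ndn (-2.92) were among the members lower under both. Igf2 did not reach the count filter in proliferating and chondrocyte cultures, and H19 is not counted there because those comparisons led to its choice.

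**Figure D4:**
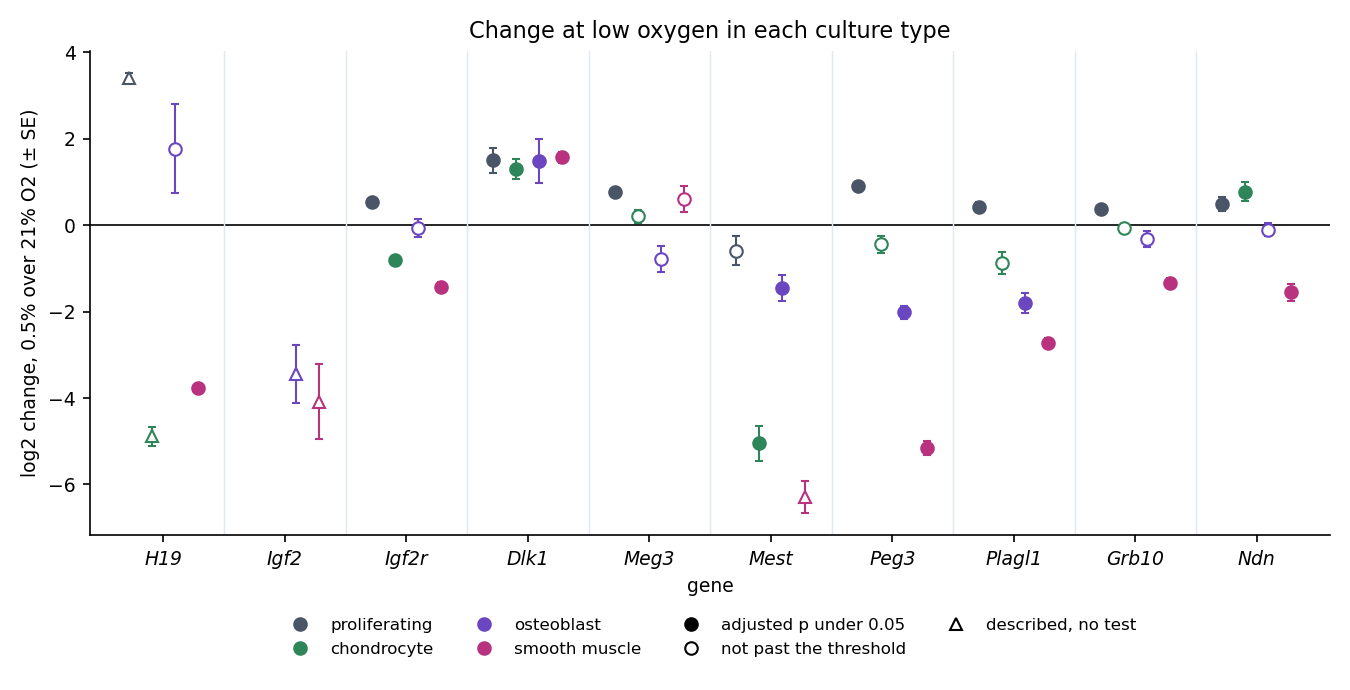
Log2 change with low oxygen (0.5% over 21%) of each gene in each of the 4 conditions, with SE bars, from edgeR with TMM scaling; filled circles passed the test, open circles did not, and open triangles are H19, Igf2 and Mest values with no test. Dlk1 is above 0 in all 4 conditions, and in smooth muscle the 6 falls that passed run from -1.33 for Grb10 to -5.16 for Peg3.

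The oxygen response of each member was compared between cultures. Against the response in proliferating cells, the smooth muscle response was more negative for 6 of 8 members counted. Of all genes 70.4% passed in either direction, with 5550 of 15640 more negative. The 6 were Peg3 (-6.03 ± 0.18, SE), Mest (-5.66 ± 0.54), Plagl1 (-3.13 ± 0.15), Ndn (-2.01 ± 0.26), Igf2r (-1.91 ± 0.12) and Grb10 (-1.66 ± 0.11). Mest is counted because groups of both oxygen levels carried it past the filter. Its value still rests on the smooth muscle difference given above without a test, with 12 hypoxic counts. For Dlk1 (0.11) and Meg3 (-0.11) the response difference did not pass. It did when libraries were scaled by size alone, at -1.23 for Dlk1 (adjusted p = 0.000999) and -1.44 for Meg3 (adjusted p = 0.00214). Under that scaling 16.6% of all called genes had the more positive response in smooth muscle, against 49.6% by TMM. The osteoblast response was more negative for 4 of 8, where 3919 of 15486 genes were more negative and 54.2% passed in either direction. The 4 were Peg3 (-2.87 ± 0.17), Plagl1 (-2.19 ± 0.27), Meg3 (-1.5 ± 0.34) and Grb10 (-0.65 ± 0.20). The difference did not pass for Mest (-0.81), Igf2r (-0.56), Ndn (-0.56) and Dlk1 (0.02). Without replicate 4 the count was 5 of 8, against 4295 of 15378 genes more negative and 60.5% in either direction. Igf2r was the added one (-0.72, adjusted p = 1.31e-05) and Meg3 was at -1.12. Ndn passed without 21% osteoblast replicate 1 (adjusted p = 0.0358) or 0.5% proliferating replicate 3 (adjusted p = 0.0207). With all libraries both Igf2r and Ndn passed by library size alone (adjusted p = 0.0242 and 0.0274) and under DESeq2 (adjusted p = 0.031 and 0.0388). Set against each other directly, osteoblast and smooth muscle cultures differed in the response of 8 of 9 members, against 62.2% of all genes (9 of 9 against 65.0% without replicate 4). Igf2 is left out, since only 21% libraries carried it past the count filter. Mest is kept, but its value rests on the same 12 counts in hypoxic smooth muscle. Beside H19, the change was less negative in osteoblast cultures for Mest (4.91 ± 0.67), Peg3 (3.21 ± 0.23), Ndn (1.51 ± 0.25), Igf2r (1.41 ± 0.26), Grb10 (1.07 ± 0.21) and Plagl1 (1.00 ± 0.26), and more negative for Meg3 (-1.33 ± 0.47, adjusted p = 0.0276). The Meg3 difference was lost without hypoxic smooth muscle replicate 1 or 3 or hypoxic osteoblast replicate 1 or 2 (adjusted p = 0.0527 to 0.0804), by library size alone (-0.19, adjusted p = 0.749), with limma-voom (adjusted p = 0.0529), without a filter (adjusted p = 0.0832) and with the replicate block (adjusted p = 0.0646). For Dlk1 it was -0.02 ± 0.58 with all libraries and 0.73 (adjusted p = 0.000941) without replicate 4. These comparisons share libraries with one another and with the single-condition tests.

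Differentiation at 21% oxygen was accompanied by higher levels of most members. Igf2 is left out here, since it had no count in proliferating cells and only the differentiated group carried it past the count filter. Compared with proliferating cells, all 8 members counted rose in smooth muscle cultures, where 5953 of 14582 genes rose and 79.7% passed in either direction. Mest rose most of them (log2 difference 5.02 ± 0.14), ahead of Plagl1 (3.50 ± 0.08), Peg3 (3.18 ± 0.08), Meg3 (1.72), Ndn (1.17), Igf2r (1.09), Dlk1 (0.88) and Grb10 (0.47). In osteoblast cultures 7 of 8 rose, where 5910 of 14434 genes rose and 78.7% passed in either direction. Mest (7.83 ± 0.32), Plagl1 (3.36 ± 0.18) and Peg3 (1.82 ± 0.07) led. Grb10 (1.26), Meg3 (1.14, or 0.72 without replicate 4), Ndn (0.89) and Igf2r (0.85) followed. Dlk1 did not pass (0.89 ± 0.49, adjusted p = 0.121), and was at 0.09 (adjusted p = 0.783) without replicate 4. In chondrocyte cultures all 8 tested passed, against 74.9% of all genes, with 6 higher, led by Mest (6.61 ± 0.29) and Plagl1 (3.09 ± 0.20) ahead of Igf2r (1.41), Grb10 (1.11), Meg3 (0.95) and Ndn, and 2 lower, Dlk1 (-2.11 ± 0.28) and Peg3 (-0.43 ± 0.11). The weakest of these, Ndn (0.41 ± 0.17, adjusted p = 0.048), was lost without any of 7 of the 8 libraries (adjusted p = 0.0535 to 0.137), and by library size alone it was 0.06 (adjusted p = 0.75). H19 was 281-fold, 36.1-fold and 164-fold above its level in proliferating cells in chondrocyte, osteoblast and smooth muscle cultures, as a description. Without replicate 4 of the 21% osteoblast group its log2 difference there was 3.29 in place of 5.17.

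The same comparisons were made at 0.5% oxygen. In smooth muscle cultures, without Mest (-0.57, which only the proliferating group carried past the filter), 3 of 7 were higher than in hypoxic proliferating cells, Meg3 (1.63 ± 0.28), Dlk1 (1.00 ± 0.12) and Plagl1 (0.39 ± 0.15), and 4 were lower, Peg3 (-2.83 ± 0.21), Grb10 (-1.17 ± 0.08), Ndn (-0.81 ± 0.25) and Igf2r (-0.80 ± 0.11), where 70.0% of all genes passed. By library size alone the sign turned for Dlk1 (-0.28) and Plagl1 (-0.88) in that comparison, and Meg3 did not pass (0.36, adjusted p = 0.263). The Plagl1 rise was lost without any of 5 of the 6 libraries (adjusted p = 0.0502 to 0.162) and the Ndn fall without hypoxic proliferating replicate 1 (adjusted p = 0.0632) or 2 (adjusted p = 0.0628). In chondrocyte cultures 7 of 8 passed (69.5% of all genes), with Mest (2.15 ± 0.37), Plagl1 (1.77 ± 0.15), Ndn, Grb10 (0.65) and Meg3 (0.39) higher and Dlk1 (-2.34 ± 0.15) and Peg3 (-1.80 ± 0.18) lower, the same directions as at 21% oxygen, while Igf2r did not pass (0.05, adjusted p = 0.486). Ndn (0.67 ± 0.21) was lost there without replicate 3 of either group (adjusted p = 0.0654 and 0.0656) and by library size alone (0.34, adjusted p = 0.177). The Meg3 call was lost by library size alone (0.06, adjusted p = 0.631) and with all 8 groups in 1 fit (adjusted p = 0.241). In osteoblast cultures 7 of 8 passed (71.3% of all genes), with Mest the highest (6.98 ± 0.23), Plagl1 (1.13), Dlk1 (0.87), Grb10 (0.57) and Igf2r higher too, Ndn not passing (0.29, adjusted p = 0.118), and Peg3 (-1.10 ± 0.15) and Meg3 (-0.40 ± 0.10) lower. Igf2r (0.25 ± 0.10, adjusted p = 0.0324) was lost there without any of 5 of the 6 libraries (adjusted p = 0.0594 to 0.137) and by library size alone (0.03, adjusted p = 0.837). With all 8 groups in 1 fit Igf2r (adjusted p = 0.161), Meg3 (adjusted p = 0.236) and Dlk1 (adjusted p = 0.0506) were lost there. H19, as a description, was within 0.24 on the log2 scale of its hypoxic proliferating level in hypoxic chondrocyte (-0.18) and smooth muscle cultures (0.24) and 3.53 above it in hypoxic osteoblast cultures. By library size alone its smooth muscle value was -1.04, with means of 16.7 CPM there and 34.4 CPM in hypoxic proliferating cells.

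Osteoblast and smooth muscle cultures were also compared at each oxygen level. At 21% oxygen 3 of 10 members differed (49.7% of all genes): Mest (2.80 ± 0.26) and Grb10 (0.78 ± 0.17) were higher in osteoblast cultures and Peg3 (-1.38 ± 0.08) lower. H19, Meg3 (-0.60), Ndn (-0.30), Igf2r (-0.25), Plagl1 (-0.15), Igf2 (-0.04) and Dlk1 (0.00) did not pass. Scaled by library size alone, Meg3 (adjusted p = 0.0428), Ndn (adjusted p = 0.0155) and Igf2r (adjusted p = 0.0364) did, as did Meg3 under DESeq2 (adjusted p = 0.0395). Without replicate 4 the count was 7 of 10 (59.7% of all genes), with H19, Dlk1 (-0.76), Meg3 (-0.97) and Ndn (-0.43) lower in osteoblast cultures as well. At 0.5% oxygen 7 of 8 differed (74.2% of all genes), leaving out Mest, which only the osteoblast group carried past the count filter (7.65 ± 0.38). H19, Grb10 (1.81 ± 0.10), Peg3 (1.79 ± 0.31), Ndn (1.17 ± 0.25), Igf2r (1.12 ± 0.15) and Plagl1 (0.80 ± 0.19) were higher in osteoblast cultures and Meg3 (-1.97 ± 0.30) lower. Dlk1 was at almost the same level in both (-0.07 ± 0.13, adjusted p = 0.628, with 45.5 to 53.8 CPM against 43.5 to 54.8 CPM), although by library size alone it was 0.91 higher in osteoblast cultures.

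Within the 21% osteoblast group the members were compared between replicate 4 and the other libraries. In replicate 4, H19 was 11.2 times the mean of replicates 1 to 3, Dlk1 3.71 times, Igf2 3.17 times, Meg3 2.16 times, Mest 1.96 times and Grb10 1.6 times. Plagl1 (0.597 times) and Igf2r (0.551 times) were lower. Only for H19 did replicate 4 lie within the range of the hypoxic osteoblast libraries. For Igf2, Meg3, Mest and Grb10 it lay on the far side of replicates 1 to 3 from the hypoxic libraries.

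**Figure D5:**
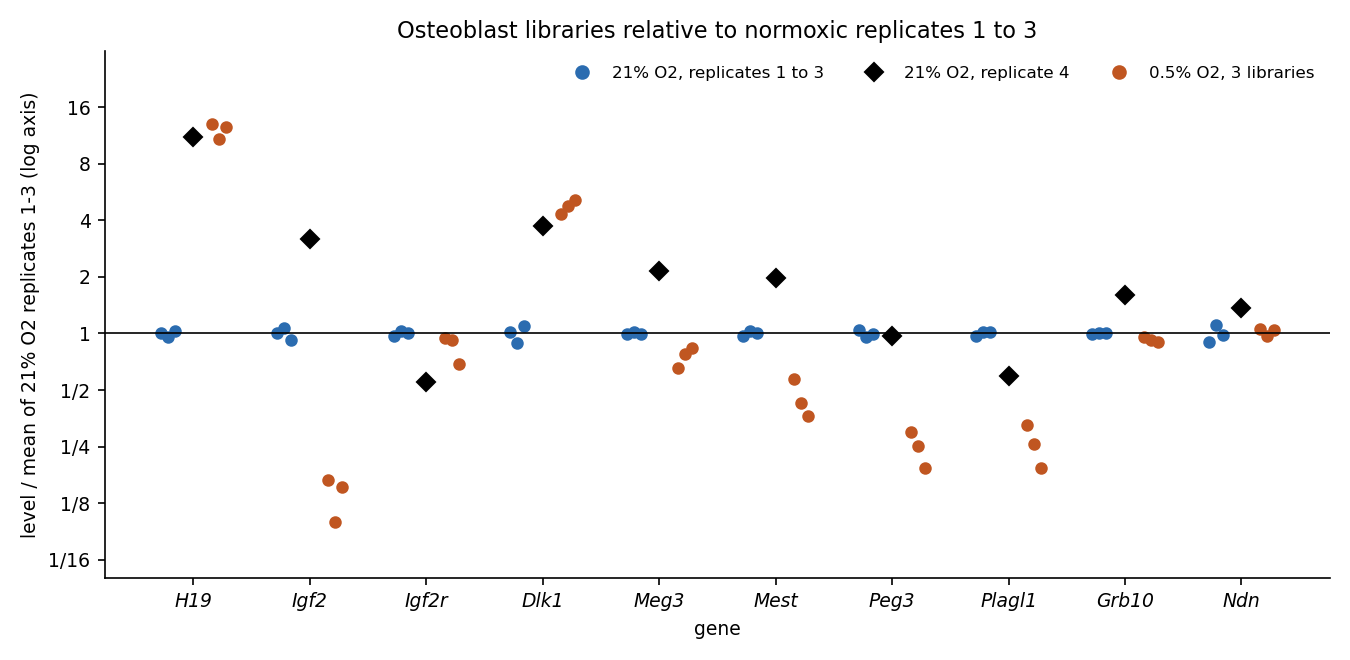
Level of each gene in the 7 osteoblast libraries divided by the mean of replicates 1 to 3 at 21% oxygen (log axis, base 2); blue points are those replicates, black diamonds replicate 4 and orange points the 0.5% libraries. H19 in replicate 4, at 11.2 times that mean, lies among the hypoxic libraries, whereas for Mest and Meg3 replicate 4 lies above replicates 1 to 3 and the hypoxic libraries below.

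A list of 32 other imprinted genes was read beside the 10, again leaving out genes that only 1 group carried past the count filter. With low oxygen 10 of 17 counted rose and 3 fell in proliferating cells (median 0.52, 65.4% of all genes passed), where Mirg rose (1.5) and Peg12 fell most (-1.90). In chondrocyte cultures, where 22.2% of all genes passed, 3 of 18 rose, among them Rian and Peg10 (0.70), and Dcn was the single fall (-4.66 ± 0.52, adjusted p = 0.00171). Dcn encodes the matrix proteoglycan decorin. In osteoblast cultures 1 of 17 rose and 5 fell, Peg13 (-1.13) among them (median -0.40, 54.3% of all genes passed). Without replicate 4 it was 2 and 7 of 16 (median -0.18), where 65.6% of all genes passed. In smooth muscle 4 of 15 rose and 7 fell (median -0.16, 75.6% of all genes passed), with the amino acid transporter Slc38a4 at -2.69. With library-size scaling 14 of 15 fell in edgeR (median -1.53, all genes -1.49). Under that scaling 12833 of 14914 genes passed, 15.6% of them higher. The rises of Kcnq1ot1 (1.32) and Inpp5f (0.79) there were -0.04 and -0.58 by library size alone.

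A list of 12 genes that set or keep DNA methylation at imprints held the DNA methyltransferases, the TET enzymes that oxidise methylcytosine, and the factors Uhrf1, Ctcf, Zfp57, Zfp445 and Trim28. In proliferating cells 4 of 11 tested rose and 5 fell (65.4% of all genes passed). Tet1 (2.48 ± 0.14, SE, adjusted p = 3.16e-09) and Tet2 (1.99 ± 0.10) rose, and Dnmt3b (-1.90 ± 0.30) and the maintenance enzyme Dnmt1 (-0.86 ± 0.06) fell. In osteoblast cultures, leaving out Dnmt3b, 3 of 10 rose and 1 fell, where 54.3% of all genes passed, with Tet2 (1.23) and Tet1 (1.11) up. Without replicate 4 at 21% it was 4 and 3, where 65.6% did. By library size alone 2 of 10 rose and 4 fell, where 8236 of 14533 genes passed and 36.9% of those were higher. In chondrocyte cultures, where 22.2% of all genes passed, 3 of 11 fell, among them Dnmt3b (-1.27) and Uhrf1 (-0.91). In smooth muscle, where 75.6% of all genes passed, 2 of 10 rose and 6 fell without Dnmt3b, with Tet1 (-1.91) down. Trim28 (1.10) and Uhrf1 (0.83) were higher there by TMM and at -0.27 and -0.54 by library size alone. By that scaling all 10 fell (median -2, all genes -1.49), where 12833 of 14914 genes passed and 15.6% of those were higher. Dnmt3b reached the count filter only through its normoxic libraries in osteoblast (-2.20) and smooth muscle cultures (-2.60), so those values are a description.

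Over the 28 libraries and 13367 genes, the genes whose log2(CPM + 1) followed H19 most closely by Pearson r were Srpx (Pearson r = 0.894, Spearman rho = 0.778), the endothelin receptor gene Ednra (0.842 and 0.766), Lum, which encodes the matrix proteoglycan lumican (0.842 and 0.791), Efcab1 (0.839 and 0.796) and the BMP antagonist gene Chrdl1 (0.837 and 0.749). By Spearman rho they ranked 6, 7, 3, 2 and 10 over the same points. These points share group, scaling and library, so the coefficients are a description. Srpx was high where H19 was high, with means of 8.94 ± 3.95 CPM (SD, n = 4) in normoxic chondrocyte, 9.71 ± 0.894 CPM (n = 4) in normoxic smooth muscle and 5.04 ± 0.510 CPM (n = 3) in hypoxic osteoblast libraries, and at most 0.299 CPM in any hypoxic chondrocyte or smooth muscle library. Among the members, Pearson r with H19 was 0.689 for Mest, 0.672 for Igf2r, 0.664 for Plagl1, 0.347 for Igf2 and -0.057 for Dlk1. The order changed by Spearman rho, which was 0.639 for Igf2r, 0.534 for Plagl1, 0.445 for Meg3 and 0.413 for Mest. The genes nearest to Meg3 by Pearson r were Armcx6 (0.87), Pisd-ps1 (0.862), the imprinted gene Gnas (0.834), Serf1 (0.832) and Dynlrb1 (0.827).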

How the data were processed

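Polyadenylated RNA of the 28 libraries (400 ng input, stranded kit) was sequenced and counted by the authors, and the deposited table holds whole-number counts per gene. The submitters' processing notes name HISAT2 2.0.5, StringTie 1.3.3b, featureCounts 1.5.0-p3 and the build mm10; the strand setting of the counting is not given in the sources used here. The 10 deposited comparison tables, with 70 per-library columns, were not used. The members and lists were chosen with earlier results of these data known.

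Each comparison was fitted on its own groups with edgeR 4.0.16 (R 4.3.3): genes were kept by filterByExpr (minimum count 10, minimum total 15), scaled by TMM, and tested by robust quasi-likelihood with Benjamini-Hochberg adjustment over all genes tested. SE is the log2 change divided by the square root of F. CPM were scaled over all 28 libraries with 16540 genes kept, and log2(CPM + 1) was used for likeness to H19 and Meg3. Lengths and positions are GENCODE M21 exon unions on GRCm38, and 54314 identifiers matched a symbol. Alternatives were library-size scaling, DESeq2 1.42.0, limma-voom (limma 3.58.1), no filter, at least 10 counts in every library, all 8 groups in one fit, replicates 1 to 3 only, a replicate block and 140 leave-one-out fits. Scaling and leaving out a library for the lists, the count without replicate 4, and leaving members and list genes out of counts where only 1 group passed the filter, were chosen after seeing the data.

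All 10 genes were to be named in every comparison that tested them; from each list, the 2 largest called rises and falls per oxygen comparison without overlap and with a mean of 10 counts in a group; and the 5 genes most like H19 and Meg3. Cdkn1c, Rtl1, Dio3, Rian, Mirg, Copg2 and Airn are also given as locus neighbours. On simulated counts for the osteoblast oxygen comparison (14533 genes), 78.9% of genes changed by 1 and 92.8% of those changed by 2 on the log2 scale were recovered, with 4.62% of calls false. For the difference between the osteoblast and proliferating responses (15486 genes) it was 57.6% and 82.3%, with 4.23% of calls false. The simulated counts held 95 and 97 changed genes of these sizes in the first comparison and 99 and 96 in the second. No simulated library stood apart, so widespread change and an outlying library were not covered. Counting intervals (95%) and the floor of 3 counts cover counting error only. No 2 libraries were identical, and all 28 lay nearest their own group.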

Additional observations from a re-analysis of the deposited data

Results flagged for a closer look

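In replicate 4 of the 21% osteoblast group, 8 of the 10 genes stood apart from the other 3 libraries by Dixon's test, in which the gap to the nearest library divided by the range of the group is set against its 95% critical value for 4 values. Of all 16540 genes 15.8% exceeded it in this library, against at most 0.822% in any of the other 3. The quotient was 0.993 for H19 (315 CPM), 0.976 for Meg3 (80.0 CPM), 0.976 for Grb10 (824 CPM), 0.94 for Mest (326 CPM), 0.933 for Igf2 (2.21 CPM) and 0.926 for Dlk1 (38.9 CPM), in all of which this library was highest. It was 0.876 for Igf2r (160 CPM) and 0.873 for Plagl1 (78.8 CPM), in which it was lowest. In normoxic smooth muscle, Grb10 was lowest in replicate 4 (289 CPM, quotient 0.849). In all, 38 groups of 4 libraries were examined and 9 exceeded the limit, where chance gives about 1 in 20, a share that does not hold for genes of 1 library that stands apart.

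The response to oxygen differed between cultures in 18 cases, of 8, 8 and 9 members tested in 3 contrasts. Osteoblast minus proliferating responses (4 of 8, where 54.2% of all genes passed) were -2.87 for Peg3, -2.19 for Plagl1, -1.5 for Meg3 and -0.65 for Grb10 on the log2 scale. Smooth muscle minus proliferating responses (6 of 8, all genes 70.4%) were -6.03 for Peg3, -5.66 for Mest, -3.13 for Plagl1, -2.01 for Ndn, -1.91 for Igf2r and -1.66 for Grb10. Osteoblast minus smooth muscle responses (8 of 9, all genes 62.2%) were 5.61 for H19, 4.91 for Mest, 3.21 for Peg3, 1.51 for Ndn, 1.41 for Igf2r, 1.07 for Grb10, 1.00 for Plagl1 and -1.33 for Meg3.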

How the results depend on the processing

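Of 150 log2 changes recomputed per alternative, 124 were kept by library size alone, 141 of 148 with DESeq2, 144 with limma-voom and 143 without a filter. With at least 10 counts in every library 137 of 140 were kept. With all 8 groups in one fit 134 were kept, 134 with replicates 1 to 3 only and 137 with the replicate block. Kept means the same direction and side of the threshold. For H19 values without a test and the chondrocyte response differences, kept means a shift below the pooled SD of log2(CPM + 1) within groups. With Igf2 counted, members called in the osteoblast oxygen comparison went from 5 to 8 with all 8 groups in one fit and 8 with the replicate block, in which replicate 4, present only at 21% oxygen, carries no weight. Members called between hypoxic osteoblast and proliferating cells went from 7 to 4 with all groups in one fit. Between osteoblast and smooth muscle cultures at 21% oxygen they went from 3 to 6 by library size alone, 5 with DESeq2 and 7 with replicates 1 to 3 only. The count was 3 to 7 when each library was left out in turn. All genes called there went from 7249 to 8145 by library size alone, and from 49.7% to 59.7% without replicate 4 of the osteoblast group. For the other settings no share of all genes is given, so these counts are not a result about the members. Replicate numbers did not pair the libraries (correlations of deviations -0.162 to 0.194, and in 0 of 16 comparisons all above 0.1).

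Signs turned mostly for values near 0, and the cause was not tested. By library size alone Meg3 in smooth muscle oxygen became -0.75, Igf2r between hypoxic chondrocyte and proliferating cells -0.28, Dlk1 -0.28 and Plagl1 -0.88 between hypoxic smooth muscle and proliferating cells, Dlk1 0.91 between hypoxic osteoblast and smooth muscle, and the Dlk1 response differences -0.12 (osteoblast against proliferating), -1.23 (smooth muscle against proliferating) and 1.12 (osteoblast against smooth muscle). That last difference was 0.23 with limma-voom, 0.07 without a filter, 0.81 with replicates 1 to 3 and 0.26 with the replicate block. Dlk1 in osteoblast against proliferating responses was -0.01 with DESeq2 and -0.04 with at least 10 counts per library. Without a filter Dlk1 was 0.08 between hypoxic osteoblast and smooth muscle, and 0.00 at 21% oxygen, as with all 8 groups in one fit. With replicates 1 to 3 only, Ndn in osteoblast oxygen was 0.03 (0.04 with the replicate block), Dlk1 between normoxic osteoblast and proliferating cells -0.12 and Plagl1 between normoxic osteoblast and smooth muscle 0.04. Leaving out each library gave -0.24 to 0.07 for Igf2r and -0.19 to 0.03 for Ndn in osteoblast oxygen and -1.35 to 0.08 for Mest between hypoxic smooth muscle and proliferating cells. Between osteoblast and smooth muscle at 21% it gave -0.68 to 0.18 for Igf2, -0.76 to 0.21 for Dlk1 and -0.21 to 0.00 for Plagl1, and at 0.5% -0.15 to 0.02 for Dlk1. For response differences it gave -0.19 to 0.79 (Dlk1, osteoblast against proliferating), -0.01 to 0.32 (Dlk1) and -0.39 to 0.18 (Meg3, both smooth muscle against proliferating) and -0.23 to 0.73 (Dlk1, osteoblast against smooth muscle).

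By library size alone the share of called genes that were higher went from 46.9% to 31.8% in chondrocyte, 49.6% to 36.9% in osteoblast and 46.8% to 15.6% in smooth muscle oxygen comparisons. Against proliferating cells it went from 50.3% to 34.7% (normoxic chondrocyte), 50.2% to 31.8% (hypoxic chondrocyte), 50.8% to 38.2% (hypoxic osteoblast) and 48.3% to 15.0% (hypoxic smooth muscle). Between osteoblast and smooth muscle it went from 50.9% to 28.4% at 21% and from 52.6% to 78.5% at 0.5% oxygen. For response differences it went from 49.6% to 16.6% (smooth muscle against proliferating) and 55.5% to 85.9% (osteoblast against smooth muscle). All-gene calls in chondrocyte oxygen fell from 3157 to 2091 without hypoxic replicate 3. Depth limits Igf2, with at most 69 counts in a library, and Mest in hypoxic smooth muscle, with 12 counts.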
